A study of Mus musculus with 6 samples.

Results

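A set of heat shock and unfolded protein response (UPR) genes was described as readouts of protein-folding stress in sorted hair bulge (HB) keratinocytes. They are the 10 genes *Hspa1a*, *Hspa1b*, *Dnajb1*, *Hsph1*, *Hspa8*, *Hsp90aa1*, *Hspb1*, *Bag3*, *Hspa5* and *Ddit3*, chosen by symbol from the 22295 genes of the count table, and all 10 were found in it. RNA was sequenced from 3 K19 *Itga3* WT and 3 K19 *Itga3* KO libraries of GFP-positive keratinocytes, which were isolated from mouse epidermis by FACS. WT mice carried K19(Cre-ERT) and mTmG on an FVB background, and KO mice carried in addition floxed *Itga3* alleles (*Itga3* fl/fl), which encode the α3 chain of integrin α3β1. Both groups were given tamoxifen at 10 mg/ml over 4 days from the age of 6 weeks, which activates Cre in K19-expressing cells and turns them and their progeny GFP-positive. At 7 weeks of age both received 1 dose of 30 μg DMBA, a mutagen, followed by 12.34 μg TPA, a tumor promoter, applied bi-weekly for 2 weeks. The study's methods give another tamoxifen dose and age than the labels. No untreated and no unsorted cells were compared here, so a level cannot be assigned to the carcinogens or to the isolation. Since Cre does not act in every HB of this line, the sorted cells are the recombined HB cells and their progeny. The columns carry the genotype and no sample number, so the libraries were given letters, WT a to WT c and KO a to KO c, and values per library always follow that alphabetical sequence.

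Heat shock proteins are chaperones that bind unfolded or partly folded proteins and help them to fold or pass them to degradation. In the cytosol, heat shock factor HSF1 is held inactive by chaperones and activates their genes when unfolded proteins draw the chaperones away. In the endoplasmic reticulum (ER), the chaperone BiP restrains the sensors IRE1, PERK and ATF6, which start the UPR when unfolded proteins accumulate: IRE1 splices the mRNA of *Xbp1*, PERK raises translation of *Atf4*, and ATF6 is cut to release a transcription factor. Enzymatic digestion and sorting of skin are themselves known to induce stress and immediate early genes.

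None of the 10 genes differed between KO and WT at an adjusted p below 0.05 in edgeR's quasi-likelihood test, and 1 of them, *Bag3*, had an unadjusted p below that value, as did 11.5% of all genes tested. The count of each gene, scaled to CPM (counts per 1000000 counts, with TMM factors), gave a KO over WT log2 fold change between 0.02 and 0.42, with a median of 0.19, against a median of 0.00 over all 21681 genes tested. Of all genes tested, 146 were called, 100 higher and 46 lower in KO, which is 0.673%. limma-voom and DESeq2 also called 0 of the 10, each with 1 at an unadjusted p below 0.05, against 11.8% and 9.49% of all genes. The larger differences were between libraries of 1 genotype: WT a had the highest WT level of 9 of the 10 genes, and WT b had the lowest WT level of 7. Among all genes in the same range of mean level, these shares were 41.1% and 46.4%. In bulk RNA, fewer cells that express a gene and less RNA per cell cannot be told apart.

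All 6 libraries had 20578309 to 23670507 counts, so that 3 counts corresponded to 0.127 to 0.146 CPM. Each of the 10 genes had at least 275 counts in every library. The targeted gene *Itga3* was at 371, 252.5 and 271 CPM in WT and at 131, 124 and 134 in KO, a log2 fold change of -1.20 (SE 0.13, edgeR adjusted p = 0.00283), which was not called without WT c (adjusted p = 0.13) or without KO a (adjusted p = 0.0934). Basal keratinocyte and HB markers were abundant, with *Krt5* at 14270 to 23980 CPM, and the 6 markers together were at 31130 to 48000 CPM in WT and 36430 to 42340 in KO. WT b stood apart in sex-linked genes, looked at after the values were seen: *Xist* was at 1019 CPM there and at most 0.138 in the other 5 libraries, whereas *Ddx3y*, *Eif2s3y*, *Uty* and *Kdm5d* were at 0.183 to 0.733 CPM there and at 32.7 to 103.9 in the others. The fold change of each of the 10 genes is therefore also given without WT b. It is given without WT a too, the library with the highest WT level of 9 of the 10 genes. For any gene whose WT level is highest in WT a, leaving that library out raises the KO over WT value. Calls of such genes without WT a therefore show how far the result hangs on 1 library, and are not separate tests of a difference. The mitochondrial share of counts was 1.17% in WT a, 1.44% in WT b, 1.24% in WT c, 1.46% in KO a, 1.19% in KO b and 1.24% in KO c.

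Promoter sequences from RefSeq (GRCm38.p6, from 250 bases before to 50 bases after a start) matched 8 of the 10 genes, with 10 windows, and were searched for the sites through which heat shock factors and the UPR act. They are shown because the 10 genes were set together by their regulation. The heat shock element is built from units of GAA and TTC that alternate with 2 bases between them, and the searched pairs were GAANNTTC and TTCNNGAA, each of which reads the same on both strands. Windows of 5 of the 8 genes held a pair, against 15.1% of the 32851 windows in the table. The 200 bases before the start of *Hspa1a* (chr17:34972157-34972356, minus strand), *Hspa1b* (chr17:34959239-34959438, minus strand) and *Hspb1* (chr5:135887719-135887918, plus strand) are given 5′ to 3′ with the pairs in capitals.
Hspa1a: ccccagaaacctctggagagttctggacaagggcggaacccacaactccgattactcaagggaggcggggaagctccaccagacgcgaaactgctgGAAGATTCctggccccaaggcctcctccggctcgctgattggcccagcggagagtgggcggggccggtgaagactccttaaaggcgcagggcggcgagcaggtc
Hspa1b: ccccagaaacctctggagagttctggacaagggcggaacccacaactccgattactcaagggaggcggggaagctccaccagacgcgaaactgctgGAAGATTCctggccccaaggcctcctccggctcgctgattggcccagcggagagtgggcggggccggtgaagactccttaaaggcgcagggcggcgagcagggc
Hspb1: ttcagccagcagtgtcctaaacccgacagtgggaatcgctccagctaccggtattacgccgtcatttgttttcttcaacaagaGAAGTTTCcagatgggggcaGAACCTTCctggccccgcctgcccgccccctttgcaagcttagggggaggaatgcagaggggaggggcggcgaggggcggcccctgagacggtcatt
The *Hspa1a* and *Hspa1b* stretches carried 1 pair each, from -104 to -97 relative to the start, and *Hspb1* carried 2, from -117 to -110 and from -97 to -90. *Hspa1a* and *Hspa1b* differed at 4 of 300 bases of the window and at 1 of the 200 bases shown. The *Hsph1* windows held a pair before the start and, after it, a run of 3 units, which 0.603% of all windows held. The *Bag3* window held a pair after the start, and neither pair was found in those of *Dnajb1*, *Hspa5* and *Ddit3*. The ER stress element, searched on both strands as CCAAT, 9 bases and CCACG, was found in the *Hspa5* window alone among the 8 genes and in 0.119% of all windows. Both the *Hsph1* pair before the start and the *Hspa5* element lie inside the annotated coordinates of their genes, which begin before these RefSeq starts. The site of *Hsph1* (chr5:149636351-149636380, minus strand) and that of *Hspa5* (chr2:34772019-34772048, plus strand) are given with 30 bases each and the motif in capitals.
Hsph1: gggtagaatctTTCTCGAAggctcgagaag
Hspa5: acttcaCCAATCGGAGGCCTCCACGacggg
Among the 8 genes, 6 had CCAAT on either strand (37.4% of all windows), and none had the ATF4 element TTGCATCA (0.895%, both strands) or TATAAA on the given strand (8.32%). These matches are descriptions of letters in the windows, and binding was not measured. Because the genes were chosen as heat shock and UPR genes, the shares do not test for an excess of sites. Only exact matches were searched, so imperfect sites are missed.

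*Hspa1a* and *Hspa1b* encode the stress-inducible HSP70, and are neighbours on chromosome 17 that share long identical stretches (GRCm38 positions 34969190 to 34972156 and 34956436 to 34959238). *Hspa1a* was at 116, 72.7 and 69.5 CPM in WT, and at 91.6, 112 and 75.5 CPM in KO. *Hspa1b* was at 276.5, 184 and 168 CPM in WT and at 239.7, 257 and 179.5 CPM in KO. Both genes were high in WT a and in KO b and low in WT c and KO c, and the genotypes overlapped throughout. The log2 fold change was 0.11 for *Hspa1a* (95% interval -0.31 to 0.52) and 0.11 for *Hspa1b* (-0.29 to 0.50), with adjusted p = 0.85 and 0.843. Without WT b the values were 0.00 and 0.02, and without WT a 0.39 and 0.37 (adjusted p = 0.188 and 0.216). The authors counted uniquely mapped reads only, and of the 65-base stretches (the read length) of the longest coding transcript, 56.5% of *Hspa1a* and 58.3% of *Hspa1b* occurred in another gene, mainly in each other. The split between both genes and their levels are therefore uncertain, while with their counts summed the log2 fold change was 0.11 (adjusted p = 0.846).

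*Hspa8* encodes the constitutive HSC70, which folds new proteins and also serves in clathrin uncoating and chaperone-mediated autophagy. It was at 793.5, 537.5 and 627.5 CPM in WT and at 862, 676 and 653 CPM in KO, so that WT a lay within the KO range and WT b and WT c below it. The log2 fold change was 0.16 (SE 0.15, 95% interval -0.17 to 0.49, adjusted p = 0.682), and it was 0.04 without WT b and 0.33 without WT a. *Hspa8*, on chromosome 9 (40800984 to 40805200), shared 71.3% of its 65-base stretches with 12 other genes, foremost the processed pseudogene *Gm15459*, so its level may be undercounted.

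*Dnajb1* and *Hsph1* encode cochaperones of HSP70, a J-domain protein that stimulates its ATPase and the nucleotide exchange factor HSP110. *Dnajb1* (chromosome 8, 83608175 to 83611902) was at 298, 159 and 204 CPM in WT and 287, 248 and 229.6 CPM in KO. *Hsph1* (chromosome 5, 149614287 to 149636376) was at 156, 50.7 and 66.7 CPM in WT and 145, 111 and 109.7 CPM in KO. For both genes WT a exceeded every KO library while WT b and WT c lay below every KO library. *Hsph1* had the widest WT range of the 10 genes, 3.07 between its highest and lowest library as a ratio, against 1.32 in KO. Its log2 fold change was 0.42 (SE 0.31, 95% interval -0.27 to 1.105, adjusted p = 0.671), and that of *Dnajb1* was 0.21 (SE 0.185, -0.19 to 0.61, adjusted p = 0.682). The value of *Dnajb1* was 0.02 without WT b and 0.50 without WT a (adjusted p = 0.0734). Without WT a the value of *Hsph1* was 1.06 (SE 0.15) and passed the test with edgeR adjusted p = 0.00705, and without WT b it was 0.13 (adjusted p = 0.906).

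*Bag3* (chromosome 7, 128523583 to 128546977) encodes a nucleotide exchange factor that couples HSP70 to selective autophagy. It was at 148, 111 and 137 CPM in WT and at 163, 155 and 156 CPM in KO, so every KO library lay above every WT library. The log2 fold change was 0.26 (SE 0.11, 95% interval 0.02 to 0.50) with an unadjusted p of 0.0354 in edgeR and adjusted p = 0.384. Without WT b it was 0.15 (unadjusted p = 0.106, adjusted p = 0.654 in edgeR), and without WT a 0.36. *Bag3* was 1 of 2 among the 10 genes whose genotypes did not overlap, the other being *Ddit3*, and both were higher in KO. Over all genes tested, 8.03% had every KO library above every WT library and 8.23% every KO library below, and over the 8489 genes in the range of levels of the 10 genes these shares were 12.6% and 9.67%. The exact two-sided permutation test gave p = 0.1 for both, the smallest that 3 against 3 libraries allow, and p = 0.3 to 0.9 for the other 8 genes.

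*Hsp90aa1* encodes the inducible cytosolic HSP90, which matures kinases and steroid receptors, and *Hspb1* encodes HSP25, a small heat shock protein that holds unfolded clients without ATP. *Hsp90aa1* (chromosome 12, 110690605 to 110702728) was at 383, 231 and 262.5 CPM in WT and 371, 305 and 264.5 CPM in KO. *Hspb1* (chromosome 5, 135887919 to 135889563) was at 574, 260.3 and 324 CPM in WT and 383, 450.0 and 341 CPM in KO. WT a was the highest library for both genes and WT b the lowest, and the KO libraries lay between them. The log2 fold change was 0.10 for *Hsp90aa1* (SE 0.175, 95% interval -0.28 to 0.485, adjusted p = 0.848) and 0.02 for *Hspb1* (SE 0.23, -0.485 to 0.52, adjusted p = 0.999). Leaving out WT b turned both, to -0.04 (adjusted p = 0.957) and -0.20 (adjusted p = 0.792), whereas without WT a they were 0.35 and 0.43. *Hsp90aa1* shared 55.1% of its 65-base stretches with other genes and *Hspb1* 49.1%, foremost with the pseudogenes *Gm12346* and *Hsp25-ps1*.

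**Figure D1:**
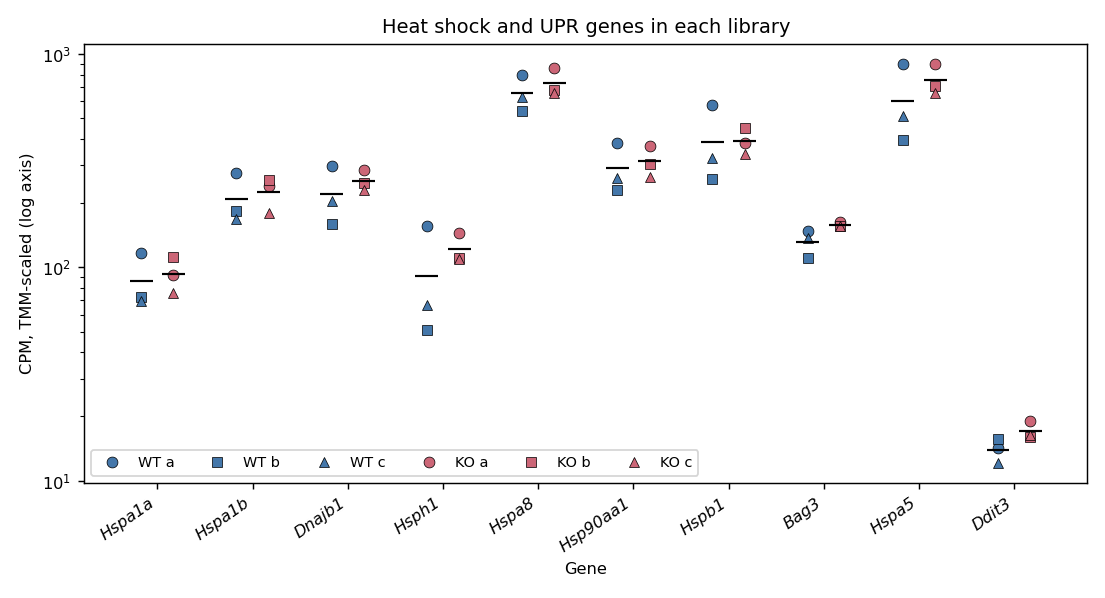
Level of each of the 10 genes in CPM (log axis) in the 3 WT (blue) and 3 KO (red) libraries, with the marker shape naming the library and a bar at the mean of each genotype. The WT libraries spread from 50.7 to 156 CPM for *Hsph1* and from 395 to 894 CPM for *Hspa5*, and the KO libraries lie above the WT libraries for *Bag3* and *Ddit3*.

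*Hspa5* encodes BiP, the HSP70 of the ER lumen and a classical UPR target, on chromosome 2 (34771970 to 34776531). It was at 894, 395 and 510.5 CPM in WT. In KO it was at 898, 707 and 657 CPM, so that WT a was close to the highest KO library, and WT b and WT c lay below all 3. The means were 600 ± 261 CPM (SD, n = 3 WT) and 754 ± 127 CPM (SD, n = 3 KO), and the log2 fold change was 0.33 (SE 0.24, 95% interval -0.19 to 0.85, edgeR adjusted p = 0.658). Without WT a it was 0.74 (SE 0.15) and passed the test with edgeR adjusted p = 0.0291, and without WT b it was 0.10 (adjusted p = 0.902).

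*Ddit3* (chromosome 10, 127290774 to 127296288) encodes CHOP, the transcription factor downstream of PERK and ATF4 that promotes death under prolonged ER stress. It was the least abundant of the 10, at 14.2, 15.7 and 12.1 CPM in WT and 19.0, 16.1 and 16.3 CPM in KO. Here WT b was the highest WT library, unlike in the other 9 genes, and the lowest KO library exceeded it narrowly. The log2 fold change was 0.29 (SE 0.14, 95% interval -0.01 to 0.60) with an unadjusted p of 0.0591 and adjusted p = 0.454 in edgeR, and it was 0.38 without WT b and 0.31 without WT a. *Ddit3* and *Bag3* were the genes with the smallest spread within genotypes.

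**Figure D2:**
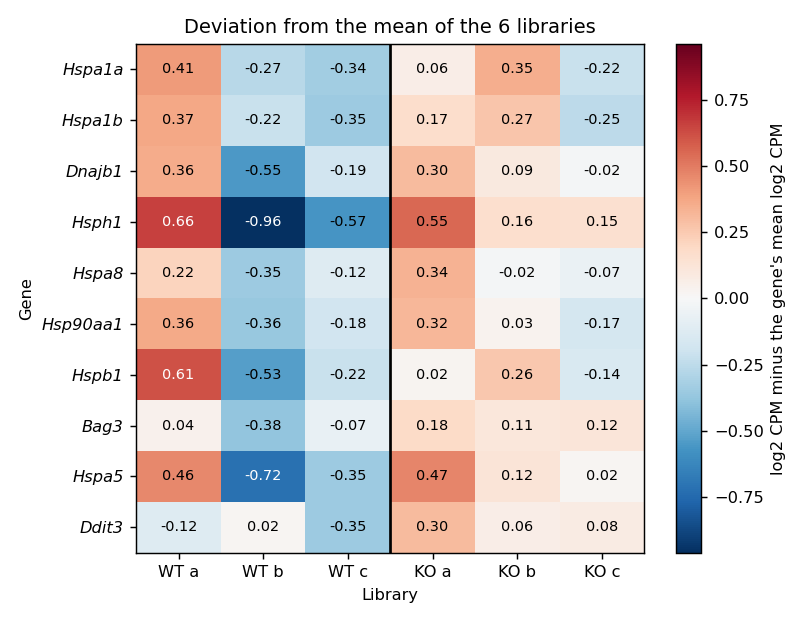
Log2 CPM of each of the 10 genes in each library minus its mean over the 6 libraries (red above, blue below the mean), with WT left and KO right of the line. WT a is above the mean for 9 genes, up to 0.66 for *Hsph1*, WT b below it for 9, down to -0.96 for *Hsph1*, and KO a above it for all 10.

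The spread within genotypes was wide for this set. The pooled SD of log2 CPM within genotypes ranged from 0.155 (*Bag3*) to 0.615 (*Hsph1*), with a median of 0.34, against a median of 0.12 over the 8489 genes tested with a mean level between those of the lowest and the highest of the 10. All 10 lay above that median. Together the 10 genes took 0.358%, 0.208% and 0.236% of the counts in WT, and 0.344%, 0.303% and 0.269% in KO. The KO libraries thus fell inside the WT range. In the heat map of deviations the median over the 10 genes was 0.37 in WT a, -0.37 in WT b, -0.28 in WT c, 0.30 in KO a, 0.12 in KO b and -0.04 in KO c. The median over the genes of like level lay between -0.05 and 0.02 in every library. Whether WT b's other sex-linked profile had a part in its low values was not tested.

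**Figure D3:**
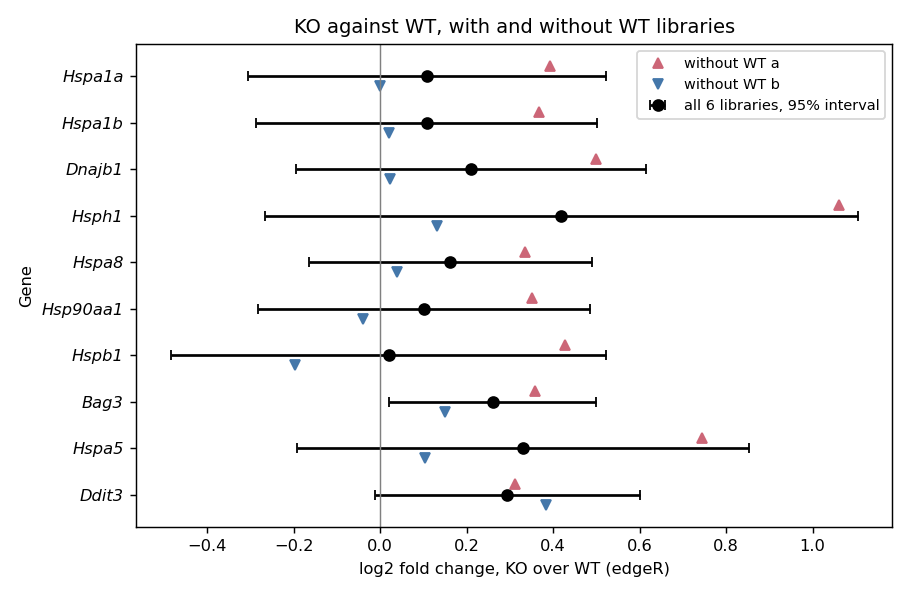
KO over WT log2 fold change of the 10 genes with all 6 libraries (black, with 95% intervals from edgeR), without WT a (red) and without WT b (blue). The interval of *Bag3* (0.02 to 0.50) lies above 0 before adjustment, and for 9 genes the value without WT a is higher than that without WT b, whereas *Ddit3* has 0.31 and 0.38.

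The median log2 fold change of the 10 genes was 0.38 without WT a and 0.03 without WT b. Without WT a, 9 of the 10 had an unadjusted p below 0.05 in edgeR and 2, *Hsph1* and *Hspa5*, were called, against 16.1% and 2.44% of all 21387 genes tested. Both called genes had their highest WT level in WT a, so these calls follow on the removal of a high WT library. Without WT b, edgeR called 0 of the 10, and 1, *Ddit3*, had an unadjusted p below 0.05 (0.0269), against 9.83% of all genes.

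Levels per length were compared as CPM per kilobase of the union of annotated exons. By this length *Hspb1* was highest, at 374 ± 161 in WT and 379 ± 53.5 in KO (SD, n = 3 each), and every library of it lay above every library of *Hspa8*, which followed. *Hspa8* (mean over the 6 libraries 161) and *Hspa5* (160.0) did not differ beyond their spread, nor did *Hspa1b* (77.5), *Hsp90aa1* (77.03) and *Dnajb1* (74.2). The annotation used for lengths ends *Hspa8* at 40810087 and *Hspa5* at 34777547, beyond the ends of the count table (40805200 and 34776531). Their lengths thus include exon sequence outside the counted genes, which lowers their values. With the longest transcript as length they were at 219 and 184, with *Hspb1* at 418. *Bag3* (56.6) followed and lay above *Hspa1a* (30.2) in every library, and every library of *Hspa1a* lay above every library of *Hsph1* (14.6). *Hsph1* and *Ddit3* (9.09) overlapped in range, with *Hsph1* higher in 5 of 6 libraries. Levels were also given as CPM per 1000 stretches of 65 bases of the longest coding transcript that occurred in no other gene. This measure was chosen after the data were seen. It changes the length as well as leaving out shared stretches, while the counts stay those of all exons. *Ddit3* and *Hsph1*, which shared no stretch, also rose, to 18.85 and 28.5. By this measure *Hspa8* (1034) came before *Hspb1* (881), and *Hspa1a* (71.0) passed *Bag3* (58.1). *Hspa5* (188) fell to the fifth place, behind *Hsp90aa1* (209.7) and *Hspa1b* (190.1). The order therefore rests in part on the length used.

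The regulators of both responses did not pass the test either. *Hsf1* was at 54.1 to 67.7 CPM in WT and 61.6 to 71.5 in KO (log2 fold change 0.17, adjusted p = 0.608), *Hsf2* had -0.04 (adjusted p = 0.909), and *Hsbp1*, which binds HSF1, had 0.22 (adjusted p = 0.393). *Hsf4*, named after its values were seen, was at 5.31 to 5.55 CPM in WT and 2.81 to 4.27 in KO, with every KO library below every WT library (-0.56, adjusted p = 0.299). Of these 4 genes, the factors *Hsf1*, *Hsf2* and *Hsf4* with the binding protein gene *Hsbp1*, 0 were called. An unadjusted p below 0.05 was found for 2, *Hsf4* and *Hsbp1*, beside 11.5% of all genes, and the median log2 fold change of the 4 was 0.06. Without WT b, *Hsf1* had 0.14 and *Hsf4* -0.57. Of the 47 other cytosolic and mitochondrial chaperones and cochaperones 0 were called by edgeR and 6 had an unadjusted p below 0.05, close to the 11.5% of all genes given above, with a median of 0.11. Their most abundant genes were *Hsp90ab1*, the constitutive HSP90, at 2083 to 2647 CPM in WT and 2475 to 2683 in KO (0.08, adjusted p = 0.796), the mitochondrial HSP70 gene *Hspa9* (0.07, adjusted p = 0.821) and the ubiquitin gene *Ubb* (0.27, adjusted p = 0.233). DESeq2, which called 3.99% of the genes to which it gave an adjusted p, called 2 of the 47, *Ubb* (0.27) and the small heat shock protein gene *Hspb8* (-0.39). In 30 of the 47 genes WT b was the lowest of the 6 libraries, against 35.1% of the genes in the level range of the 10 genes.

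The UPR sensor genes *Ern1* (IRE1), *Eif2ak3* (PERK) and *Atf6* had log2 fold changes of -0.03, 0.03 and 0.05, with adjusted p = 0.938, 0.934 and 0.848. *Xbp1* was at 112, 82.3 and 85.4 CPM in WT and 131, 118 and 101 in KO (0.32, SE 0.13, adjusted p = 0.365). *Atf4* was at 272, 198 and 224 CPM in WT and 347, 282 and 273 in KO (0.38, SE 0.13, adjusted p = 0.264), with every KO library above every WT library, though narrowly for KO c over WT a. Without WT b, *Xbp1* had 0.24 and *Atf4* 0.28 (adjusted p = 0.646 and 0.512). Splicing of *Xbp1*, translation of *Atf4* and cleavage of *Atf6* are not seen in counts per gene. Of the 10 sensor and transcription factor genes 0 were called and 3 had an unadjusted p below 0.05, beside 11.5% of all genes, with a median of 0.01. The site protease gene *Mbtps1* (-0.11) and *Atf6b* (0.24) were among the 3 most abundant of these, with *Atf4*.

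Targets of the PERK and ATF4 branch, the branch of *Ddit3*, had a median log2 fold change of 0.24. Of these 15 genes 0 were called by edgeR and 7 had an unadjusted p below 0.05, beside the 11.5% of all genes. In 5 of the 15 every KO library lay above every WT library, against 8.03% of all genes and 12.6% of those in the level range of the 10 genes. In 1, the serine synthesis gene *Phgdh*, every KO library lay below. The gene with the smallest adjusted p was *Ppp1r15a*, which encodes GADD34, the phosphatase subunit that reverses PERK's phosphorylation of eIF2α. It was at 164, 119 and 145.5 CPM in WT and 264, 204 and 204 CPM in KO, a log2 fold change of 0.65 (SE 0.13, edgeR adjusted p = 0.0587). The mTORC1 inhibitor gene *Ddit4* was at 80.4, 69.8 and 62.7 CPM in WT and 148.5, 96.7 and 102.5 in KO (0.71, SE 0.15, adjusted p = 0.0669). The cystine transporter gene *Slc7a11* was at 2.98, 3.57 and 6.48 CPM in WT and 9.73, 8.39 and 8.85 in KO (1.05, SE 0.26, adjusted p = 0.0978). With all 6 libraries none of these 3 genes passed the threshold in edgeR. DESeq2 called all 3, with adjusted p = 0.00253, 0.00515 and 0.0117, and limma-voom called none, with adjusted p = 0.1385, 0.167 and 0.156. Without WT b their log2 fold changes were 0.53, 0.70 and 0.92, with adjusted p = 0.115, 0.143 and 0.222 in edgeR. Without WT a they were 0.77, 0.815 and 0.845, with edgeR adjusted p = 0.0169, 0.0297 and 0.0829, where 2.44% of all genes were called. *Ddit4* also passed without KO b (0.835, edgeR adjusted p = 0.0425). The remaining 2 without overlap were *Sesn2* (0.53, adjusted p = 0.203) and *Nupr1* (0.43, adjusted p = 0.264). *Ddit4*, *Slc7a11*, *Sesn2*, *Nupr1* and *Phgdh* were named after their values were seen. The most abundant genes of the branch were *Atf3*, at 452 to 967.5 CPM in WT and 909 to 1225 in KO (0.59, adjusted p = 0.305), *Ppp1r15a* and the serine synthesis gene *Psat1* (-0.08, adjusted p = 0.801). *Atf3* was called without WT a (0.91, edgeR adjusted p = 0.0187) and not without WT b (0.36, adjusted p = 0.542).

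Of the 34 other ER chaperone and ER-associated degradation (ERAD) genes 0 were called and 3 had an unadjusted p below 0.05, beside 11.5% of all genes, with a median log2 fold change of 0.15. They followed the libraries like *Hspa5*: WT b was the lowest of the 6 libraries for 28 of the 34 and WT a the highest of the 3 WT libraries for 25, against 35.1% and 41.1% of the genes of like level. *Calr*, which encodes the lectin chaperone calreticulin, was at 1189, 551 and 756 CPM in WT and 1066, 959 and 931 in KO (0.24, adjusted p = 0.682). The disulfide isomerase genes *Pdia3* (0.20, adjusted p = 0.658) and *P4hb* (0.10, adjusted p = 0.696) were next in level. Without WT a, 6 of the 34 genes of this list passed the test in edgeR, beside *Hspa5*, against 2.44% of all genes tested. They were higher in KO for *Calr* (0.60), *Pdia4* (0.61), *Hyou1* (0.61), *Creld2* (0.69) and *Sdf2l1* (0.83) and lower for *Crebrf* (-0.74). Without WT b the same 6 genes had log2 fold changes of 0.02, 0.15, 0.14, 0.17, -0.02 and -0.31, with adjusted p of 0.492 or more. The genes named in the last 2 sentences other than *Calr* were chosen after their values were seen.

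**Figure D4:**
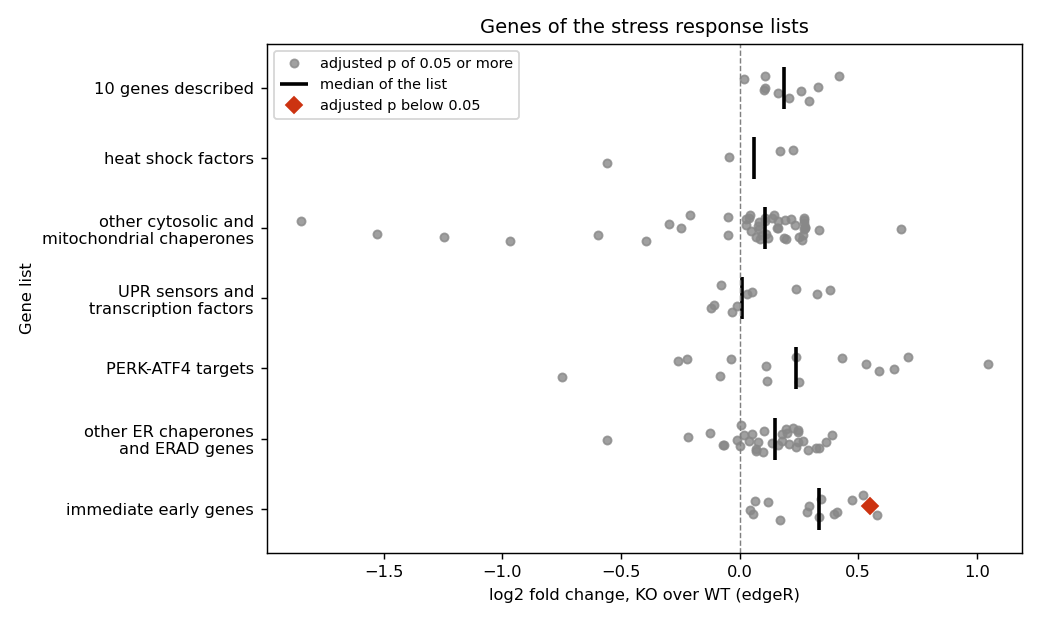
KO over WT log2 fold change of each gene (points) in the 10 genes and in 6 lists of related genes, with a bar at the median of each list and a red diamond for an adjusted p below 0.05 in edgeR. The medians lie between 0.01 (UPR sensors and transcription factors) and 0.34 (immediate early genes), and *Socs3* is the only gene of these lists that passed the test.

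Immediate early genes, which respond to cell dissociation within minutes, were very abundant and ordered the WT libraries like the 10 genes. *Fos* was at 4166, 2115 and 2381 CPM in WT and 3188, 3948 and 3467 in KO (0.29, adjusted p = 0.662). The 15 genes of this list summed to 17630, 9462 and 11250 CPM in WT and to 14930, 17150 and 14710 CPM in KO. The 10 heat shock and UPR genes summed to 3653, 2017 and 2382 CPM in WT and 3459, 3036 and 2682 CPM in KO, so in both sums WT a was highest and WT b lowest, while KO a and KO b changed places. The part of dissociation in the levels of the 10 genes was not tested. All 15 had a log2 fold change above 0, and 5 had an unadjusted p below 0.05 in edgeR, beside 11.5% of all genes. In 3 every KO library lay above every WT library, beside 8.03% of all genes. In edgeR, 1 of the 15 was called, against 0.673% of all genes. It was *Socs3*, a feedback inhibitor of cytokine signaling, at 254, 207.6 and 245 CPM in WT and 323, 332 and 379 in KO (0.55, SE 0.11, adjusted p = 0.0453). The call was lost in limma-voom (adjusted p = 0.111), with each of 3 narrower sets of genes, and without WT b, WT c, KO a, KO b or KO c in turn (adjusted p = 0.0639 to 0.368). The median of the list was 0.34, and *Fosb* (0.34) and *Egr1* (0.28), the next in level, had adjusted p = 0.682 and 0.649.

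Markers of other cell types were low in the sorted cells. The 6 fibroblast markers summed to 116 to 177.5 CPM in WT and 48.1 to 80.3 in KO, nearly all *Col1a1* and *Col1a2*, with *Col1a1* at 40.4 to 123 CPM in WT and 26.9 to 46.2 in KO (-1.19, adjusted p = 0.127). The sum thus rests on these 2 genes, and every KO sum lay below every WT sum. Of the 6 markers, 3 had a log2 fold change above 0 and 3 below, with a median of 0.33. All markers but *Col1a1* and *Col1a2* had a mean of at most 2.37 CPM, so the signs and the median rest largely on genes at low levels. An unadjusted p below 0.05 in edgeR was found for 5 of the 6, beside 11.5% of all genes. *Col1a1* was called without WT b (-1.53, edgeR adjusted p = 0.0109). *Col1a2* (-1.18, adjusted p = 0.0555), with every KO library below every WT library, was called without WT a (-1.28, adjusted p = 0.0237), while *Dcn* had 1.84 (adjusted p = 0.113). *Col1a2* and *Dcn* were named after their values were seen. The 5 immune markers summed to 5.63 to 10.45 CPM in WT and 5.99 to 9.19 in KO, led by *Cd74*. The 4 endothelial markers summed to 5.555 to 8.67 CPM in WT and 3.70 to 4.97 in KO, led by *Tek*, and the 4 melanocyte markers to 6.33 to 12.9 and 9.755 to 11.4 CPM, led by *Dct*. *Lum*, *Lyz2* and *Cdh5* had at most 3 counts in every library. The part of these cells in the values of the 10 genes was not tested. Among the 6 keratinocyte and HB markers, *Cd34* was lower in KO (-0.72, SE 0.14, edgeR adjusted p = 0.0462), a call that was lost in limma-voom (adjusted p = 0.118), with each of the 3 narrower sets of genes (adjusted p = 0.123 to 0.133) and without WT b, WT c, KO a or KO c (adjusted p = 0.0685 to 0.378).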

How the data were processed

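The deposited table holds whole-number counts of reads per gene, not normalized, for 6 libraries. To make these counts, the authors prepared stranded libraries from poly(A) RNA, mapped 65-base single reads to GRCm38 using TopHat2 2.1.0, Bowtie 1.1 and an Ensembl annotation, and kept reads with a unique match on the gene's strand. The study names 3 mice of each genotype, which equals the number of libraries, so p-values measure the spread between mice if each library came from 1. All pairs of libraries differed by more than sampling noise (10.07 to 67 for the chi-square of their counts divided by its degrees of freedom).

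The 10 genes and the lists were chosen with earlier results of these data known. The 21681 genes with a count in any library were tested in R 4.3.3 with edgeR 4.0.16 (glmQLFit, glmQLFTest, TMM scaling, 3 WT against 3 KO), with Benjamini-Hochberg adjustment over all of them. Intervals are t intervals from the same fit. Limits at 3 counts cover counting error only. The code was tested on simulated counts. Alternatives were limma-voom (limma 3.58.1), DESeq2 1.42.0, edgeR scaled by upper quartiles or by library size alone, the filterByExpr filter, at least 10 counts in every library, all genes, protein-coding genes, and each library left out. Exon lengths and shared 65-base stretches came from GENCODE M21 transcripts (GRCm38; 6 of the 10 genes had the coordinates of the count table), by exact match on both strands and without genes overlapping in position. Named were all 10 genes, *Itga3*, 7 regulators, called genes and the 3 most abundant of each pathway list, and the most abundant gene of each marker list. Coordinates are those of the count table.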

Additional observations from a re-analysis of the deposited data

How the results depend on the processing

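Over 152 alternative values of the 10 genes, 143 kept the direction, 8 turned and 1 was 0.00 (*Hspa1a* without WT b), and 2, *Hsph1* (1.06) and *Hspa5* (0.74) without WT a, passed the test. With a library left out, the log2 fold change ranged from -0.033 to 0.39 for *Hspa1a*, -0.03 to 0.37 for *Hspa1b*, 0.02 to 0.50 for *Dnajb1*, 0.025 to 0.33 for *Hspa8*, -0.041 to 0.35 for *Hsp90aa1* and -0.20 to 0.43 for *Hspb1*. The 10 genes gave 0 to 2 calls with a library left out and 0 under every other setting, and their median ranged from 0.03 to 0.38. The count over all genes was 24 in limma-voom with TMM factors, 28 with library size only, 546 in DESeq2, 15 with filterByExpr, 12 with at least 10 counts in every library, 25 over protein-coding genes and 5 to 521 with a library left out. Calls among immediate early genes were 0 in both limma-voom fits, with filterByExpr, with at least 10 counts and over protein-coding genes, 2 in DESeq2 (*Socs3* and *Zfp36*) and 0 to 8 with a library left out. DESeq2 called 2 of the other chaperone genes and 3 of the other UPR genes, and leaving out a library gave 0 to 9 of the latter, the 9 without WT a. The cause was not tested. No paired analysis was possible because the columns carry no replicate number. With 3 libraries a group, the interval of *Hsph1* spanned -0.27 to 1.105. Log2 fold changes across this range, including no change, were therefore not excluded for this gene. Counting error was small, since the lowest count of the 10 genes was 275.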

Other observations

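*Fkbp5*, an HSP90 cochaperone induced by glucocorticoid receptor signaling, was at 160.3 CPM in WT b and at 22.6 and 23.5 CPM in the other WT libraries, and at 26.6, 33.1 and 27.3 CPM in KO (log2 fold change -1.25, adjusted p = 0.449 in edgeR). Its homolog *Fkbp4* was lowest in WT b, with 334, 182 and 246 CPM across the WT libraries against 322, 294 and 303 CPM in KO. Both were looked at after the values were seen.

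In 4 of the 47 chaperone list genes every KO library lay below every WT library, close to the 8.23% of all genes tested, and in 2 every KO library lay above, beside 8.03% of all genes. *Hspb8*, a partner of BAG3, was at 216, 235 and 203 CPM in WT and 177, 179 and 142 CPM in KO (-0.40, SE 0.11, edgeR adjusted p = 0.144). The others were near the limit of 3 counts or at few counts: *Hspa1l* (0.397 to 0.504 CPM in WT, 0.085 to 0.235 in KO), *Hspb2* (0.780 to 1.05 and 0.383 to 0.563) and *Hspa12a* (1.79 to 3.02 and 1.27 to 1.74). None of the 4 was called by edgeR, and all were named after their values were seen.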
